A study of Mus musculus with 50 samples.

Results

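The genes described here are E2F transcription factors and DNA replication genes in mouse embryonic stem cells. Control of the replication genes by these factors was not tested here. The set was chosen by gene symbol, with earlier results of these data known, and holds 36 of the 55579 genes listed in the deposited expression tables. It is made of 7 E2F paralogs (E2f1, E2f2, E2f3, E2f4, E2f5, E2f7 and E2f8) and 29 replication genes (Ccne1, Ccne2, Orc1, Orc6, Cdc6, Cdt1, Mcm2 to Mcm7, Mcm10, Cdc45, Gins1, Gins2, Pola1, Pold1, Pole, Pcna, Rfc3, Rfc4, Fen1, Rrm1, Rrm2, Tyms, Tk1, Chek1 and Brca1). All 36 genes were listed in every table and all 36 passed the filter on low values there.

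E2F proteins bind gene promoters, most of them together with a DP partner, and set the transcription of genes needed to enter and complete S phase. In the classical scheme the pocket proteins of the RB family hold E2F in check during G1, and phosphorylation by cyclin D and cyclin E kinases releases it. E2F1, E2F2 and E2F3 are known as activators, E2F4 and E2F5 as repressors that work with pocket proteins, and E2F7 and E2F8 as atypical repressors that bind without DP and are themselves E2F targets. Mouse embryonic stem cells are known for a short G1 phase and for high levels of cyclin E and of replication genes.

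The series addresses how β-catenin and proteins associated with it regulate developmental genes in embryonic stem cells. RNA-seq was analysed here for 32 libraries in 13 groups; 18 further libraries for chromatin binding and their inputs were not analysed here. The first table held 12 libraries of the V6.5 mouse embryonic stem cell line in 2i, a medium with inhibitors of the MEK and GSK3 kinases, carrying a short hairpin labelled shGFP (the control, 6 libraries), shBcat, shE2F6 or shHP1r (2 libraries each). The second held cells labelled QKO, a name that the labels do not spell out, kept in 2i for 48 h with shBcat or shGFP (3 libraries each). The third held V6.5 cells with no hairpin named, in 2i and after 24 h and 48 h as epiLC, epiblast-like cells, which stand for the step from naive to primed pluripotency (2 libraries each). The fourth held V6.5 epiLC with shBcat at 24 h, 48 h and 96 h and control epiLC at 96 h, whose labels name no hairpin (2 libraries each). Nothing in the labels ties replicates to separate cultures, and a p-value here covers only how far these libraries differ, possibly for technical reasons.

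Levels are in FPKM, fragments scaled by transcript length and library size, in the first table and in TPM, transcripts scaled to a common total, in the other 3. Neither unit keeps the number of reads, so the depth is unknown. Differences are log2(value + 1) of the first group minus the second, which understates the change of genes with low values. Genes were called with limma at a Benjamini-Hochberg adjusted p under 0.05 over all genes tested in a table, and no test was run across tables. In bulk RNA, fewer cells in S phase and less RNA per cell cannot be told apart.

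The knockdown targets moved with the labels. Ctnnb1, which encodes β-catenin, fell from a mean of 115.98 to 6.595 FPKM with shBcat in V6.5 cells, from 505.07 to 64.4 TPM in QKO cells and from 444.55 to 143.51 TPM in epiLC at 96 h. E2f6 fell from 10.028 to 3.055 FPKM with shE2F6, and Cbx3, which encodes HP1γ, from 63.517 to 6.925 FPKM with shHP1r. In the unmodified course all 5 epiLC markers tested rose by 24 h and 7 of 8 naive markers fell, with 1 higher. Dnmt3b, a DNA methyltransferase of primed cells, went from 12.43 and 14.32 TPM in 2i to 356.22 and 353.64 TPM at 24 h. The 6 shGFP libraries fell into close pairs, with a median absolute log2 difference over genes of 0.0506 to 0.0657 within the pairs 1 and 2, 3 and 4, and 5 and 6, against 0.158 to 0.371 between them. Mitochondrial transcripts took 19.3 to 22.9% of the FPKM in shGFP replicates 3 and 4 and in both shE2F6 libraries, and 6.23 to 10.3% in the other libraries of that table. Fibroblast markers summed to 243.22 to 567.89 TPM in the QKO shGFP libraries and to 62.69 to 90.77 TPM in the QKO shBcat libraries.

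E2F-type sequence words were found in the promoters of E2f2, E2f3, E2f7, Orc1, Cdc6, Cdt1, Mcm3, Mcm5, Mcm6, Mcm7, Pola1, Pold1 and Rfc3. RefSeq promoters (GRCm38.p6, 250 bases before to 50 bases after the transcription start) were searched on both strands for TTTCGCGC, TTTGGCGC, TTTCCCGC and TTTGCCGC, spellings of the classical E2F site. These are 13 of the 29 genes with an entry (44.8%), against 704 of 27025 genes in the whole table (2.6%). The median GC content of the windows was 57.3% for these genes and 52.7% for all promoters. TTTCCCGC was present in 7 member promoters, TTTGGCGC in 6, TTTCGCGC in 5 and TTTGCCGC in 0, against 1.07%, 0.514%, 0.323% and 0.441% of all promoters. E2f4, E2f5, Ccne2, Mcm4, Gins1, Gins2 and Pole have no entry. The stretches below show the word, in capitals, in 8 genes whose changes are described later. They are written 5′ to 3′ along the gene, with the word or its reverse complement, and overlapping words joined in one run of capitals. In Mcm5 and Mcm6 the capitals are a pair of overlapping words on opposite strands.
Cdt1, licensing factor, chr8:122568035-122568064, + strand: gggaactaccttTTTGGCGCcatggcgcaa
Mcm5, helicase subunit, chr8:75109347-75109376, + strand: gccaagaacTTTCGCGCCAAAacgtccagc
Cdc6, licensing factor, chr11:98908002-98908031, + strand: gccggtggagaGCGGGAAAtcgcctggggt
E2f3, activator, chr13:29986056-29986085, - strand: ttgaaaagccgGCGGGAAAtctgagtttcg
E2f7, atypical repressor, chr10:110745230-110745259, + strand: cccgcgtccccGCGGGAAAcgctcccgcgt
Mcm6, helicase subunit, chr1:128359795-128359824, - strand: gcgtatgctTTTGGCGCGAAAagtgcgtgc
Pola1, primase-polymerase subunit, chrX:93632275-93632304, - strand: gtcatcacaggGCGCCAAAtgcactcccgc
Orc1, origin recognition subunit, chr4:108579416-108579445, + strand: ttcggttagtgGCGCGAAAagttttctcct

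Genes with and without a word were found among those that rose and those that fell in epiLC. At 24 h against 2i, where 36.2% of all genes tested were called higher and 39.8% lower, 10 of the 13 genes with a word were higher, 2 were lower (Mcm6 and Pola1) and 1 did not pass (Orc1). Of the 16 genes with an entry and no word, 10 were higher, 4 were lower and 2 did not pass. A match describes the letters of this window and is not evidence of a bound factor.

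Replication gene RNA rose at 24 h of epiLC culture and most of it was lower again at 48 h, and the makeup of the E2F paralogs changed over the same hours. At 24 h against 2i, 26 of the 36 genes rose and 7 fell, with a median log2 difference of 0.44 against -0.04 over all genes tested. In this comparison 76% of all tested genes were called, 36.2% higher and 39.8% lower, so calls as such were common. From 24 h to 48 h, 2 genes rose and 30 fell, with a median log2 difference of -0.35 against 0.12 over all genes, where 74.2% of all genes were called, 45.2% higher and 28.9% lower. In 24 of the 36 genes both 24 h libraries lay above all 2i and 48 h libraries (66.7%, against 22.4% of all genes). These 24 were 3 of the 7 E2F paralogs and 21 of the 29 replication genes. The reverse, a trough at 24 h, was seen in E2f5 and Rfc4 (5.56%, against 31.8% of all genes). The calls of Gins1, Mcm6, Pole and Rfc4 at 24 h, and of E2f2 and Pola1 from 24 h to 48 h, were lost without at least 1 library. The comparisons at 24 h and 48 h share libraries, so their values are given side by side and not as separate evidence of a peak.

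**Figure D1:**
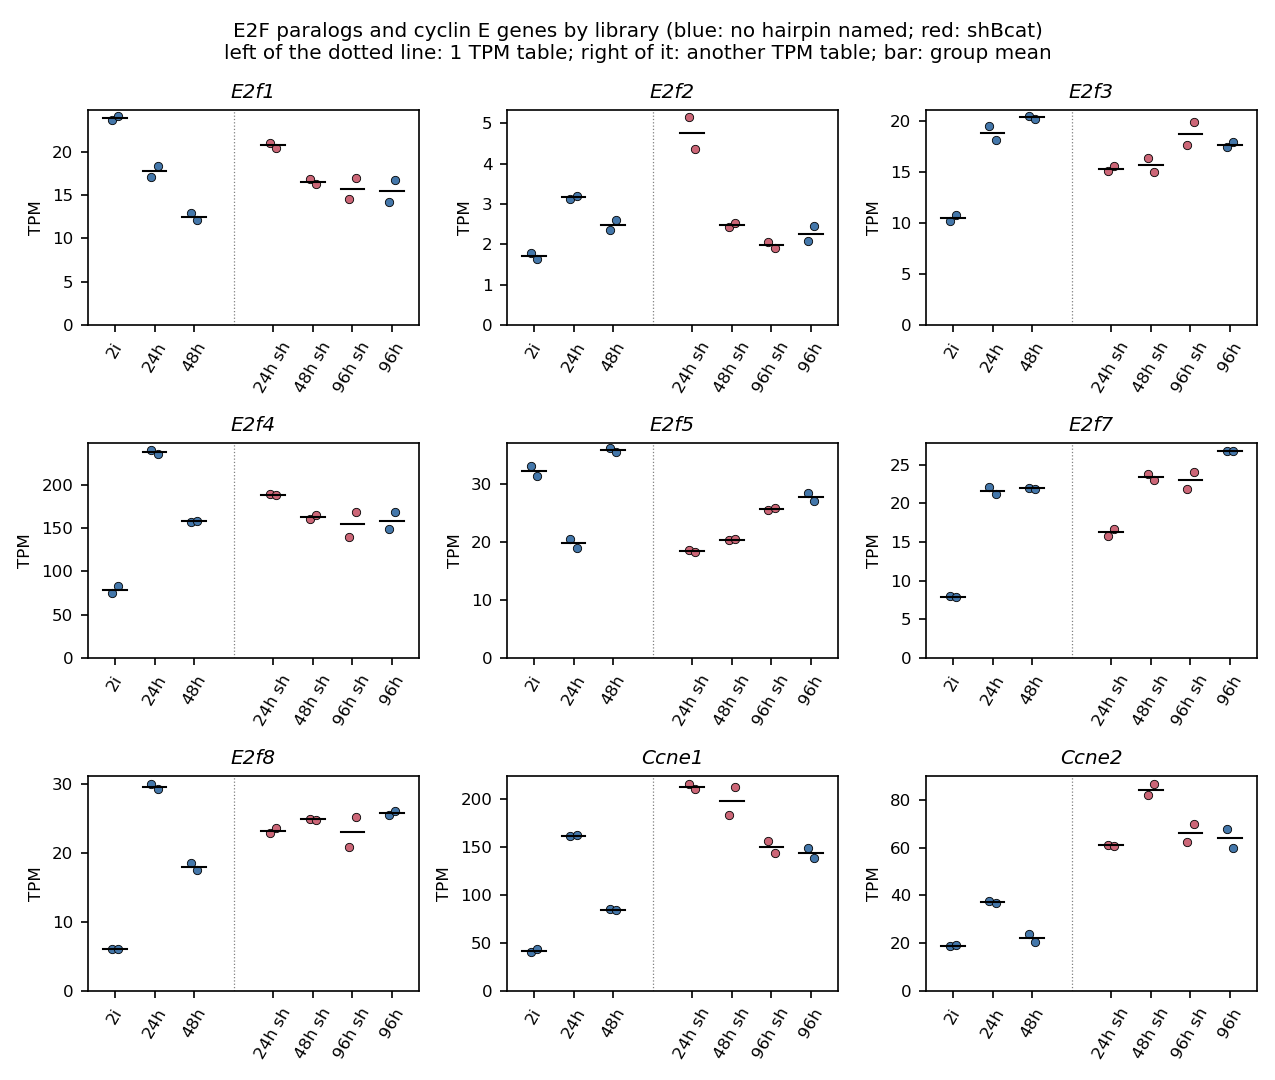
TPM of the 7 E2F paralogs and both cyclin E genes in each epiLC library and in 2i, 1 panel a gene; blue points name no hairpin, red points carry shBcat, short bars are group means, and the dotted line parts 2 separately made TPM tables. E2f4, E2f8 and Ccne1 peak at 24 h left of the line, E2f1 steps down from 24.17 to 12.1 TPM and E2f5 dips at 24 h.

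Among the activators, E2f1 went down while E2f3 went up. E2f1 stood at 23.64 and 24.17 TPM in 2i, 17.12 and 18.31 TPM at 24 h and 12.88 and 12.1 TPM at 48 h. The groups did not overlap and each step passed the test (log2 difference -0.41, SE 0.05, limma adjusted p = 0.00032 at 24 h, and -0.47, adjusted p = 0.000175 from 24 h to 48 h). E2f3 was 10.24 and 10.74 TPM in 2i, 19.54 and 18.14 TPM at 24 h and 20.53 and 20.24 TPM at 48 h. It rose by 24 h (0.79, adjusted p = 1.13e-05 with limma), and its further difference of 0.11 to 48 h did not pass (adjusted p = 0.0991). E2f2 was the lowest of the 36 genes in every group, at 1.65 to 1.79 TPM in 2i, 3.13 to 3.2 TPM at 24 h and 2.35 to 2.6 TPM at 48 h.

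Of the repressors, E2f4 and E2f5 moved in opposite directions. E2f4 was 75.08 and 82.79 TPM in 2i, 239.48 and 235.54 TPM at 24 h and 156.96 and 157.94 TPM at 48 h, a ratio of means of 3.01 at 24 h against 2i (log2 difference 1.58, SE 0.05, limma adjusted p = 3.35e-07). E2f5 was 33.06 and 31.38 TPM in 2i, fell to 20.45 and 19.02 TPM at 24 h, and was back at 36.09 and 35.49 TPM at 48 h. Its fall was -0.68 (SE 0.05, limma adjusted p = 1.59e-05) and its rise 0.83 (adjusted p = 7.97e-06). The atypical repressors both rose. E2f8 had the largest log2 difference of the 36 genes at 24 h, from 6.06 and 6.07 TPM in 2i to 29.93 and 29.21 TPM (2.11, SE 0.05, limma adjusted p = 1.33e-07), and stood at 18.46 and 17.47 TPM at 48 h. E2f7 went from 7.95 and 7.85 TPM in 2i to 22.09 and 21.18 TPM at 24 h and kept that level, at 22.03 and 21.86 TPM at 48 h. The E2f7 difference between 24 h and 48 h was 0.02 (limma adjusted p = 0.701).

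The makeup of E2F RNA changed with these steps. TPM is scaled by length, so the paralogs can be added: their sum was 158 and 165 TPM in 2i, 345 and 352 TPM at 24 h and 268 and 269 TPM at 48 h. E2f4 held 47.6 to 50.3% of the sum in 2i, 68.1 to 68.4% at 24 h and 58.3 to 59% at 48 h. The share of E2f1 went from 14.7 to 15% in 2i to 4.87 to 5.31% at 24 h and 4.52 to 4.78% at 48 h. E2f5 held 19.1 to 20.9%, 5.52 to 5.81% and 13.3 to 13.4% in the same order. In all 3 groups E2f4 ranked first among the paralogs and E2f2 last.

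The cyclin E genes, whose proteins activate CDK2 at the G1 to S transition, both rose at 24 h and fell by 48 h, and Ccne1 had the largest log2 difference of the 29 replication genes at 24 h. Ccne1 was 40.55 and 43.11 TPM in 2i, 160.98 and 162.24 TPM at 24 h and 85.03 and 84.11 TPM at 48 h. Its 24 h mean was 3.86 times that of 2i (log2 difference 1.93, SE 0.04, limma adjusted p = 7.45e-08), and 48 h was lower than 24 h (-0.93, adjusted p = 1.46e-06). Ccne2 followed a like course at a lower level, with 18.69 and 19.18 TPM, then 37.47 and 36.81 TPM, then 23.81 and 20.62 TPM. In both genes no library of a group overlapped another group.

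The 4 members for origin licensing, the loading of the helicase onto DNA in G1, did not move alike. Cdc6 and Cdt1, which load the MCM ring, rose and fell again, while Orc1 and Orc6, subunits of the origin recognition complex that marks the sites, did not pass at 24 h. Cdt1 went from 89.46 and 91.3 TPM in 2i to 158.45 and 163.33 TPM at 24 h and 104.3 and 101 TPM at 48 h (0.82, SE 0.03, limma adjusted p = 9.1e-07 at 24 h). Cdc6 went from 36.6 and 40.64 TPM to 67.66 and 66.42 TPM and then 45.86 and 44.57 TPM. Orc1 was 46.05 and 46.59 TPM in 2i and 46.85 and 42.86 TPM at 24 h, with overlapping groups (-0.05, limma adjusted p = 0.419). Orc1 and Orc6 fell after 24 h (-0.43 and -0.32), and Orc1 stood at 32.32 and 33.81 TPM at 48 h, under both earlier groups.

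Of the 6 subunits of the MCM2 to MCM7 helicase, which unwinds DNA at the fork, 5 rose at 24 h with a median log2 difference of 0.48 over the 6. Mcm2 was 234.1 and 224.58 TPM in 2i, 365.75 and 347.99 TPM at 24 h and 260.71 and 249.39 TPM at 48 h (0.64, limma adjusted p = 6.99e-06 at 24 h). Mcm5 was 249.62 and 259.38 TPM, then 372.71 and 367.01 TPM, then 265.85 and 254.16 TPM, so that at 48 h its groups overlapped with 2i. Mcm7 rose to 304.47 and 304.66 TPM from 185.94 and 205.22 TPM and was still 286.72 and 278.42 TPM at 48 h. Mcm6 was the exception: it was 237.07 and 238.15 TPM in 2i, 217.79 and 222.59 TPM at 24 h and 197.64 and 193.05 TPM at 48 h. Its step at 24 h was small (-0.11, limma adjusted p = 0.00719) and was lost under median-of-ratios scaling (-0.05). The ratio of Mcm6 to Mcm2 RNA changed in this course. Mcm6 was above Mcm2 in both 2i libraries, narrowly in replicate 1 (237.07 against 234.1 TPM), and below it in all 4 epiLC libraries. That order in 2i did not hold elsewhere. With shGFP in V6.5 2i cells Mcm6 was 58.5 to 83.7 FPKM and Mcm2 108 to 138 FPKM. With shGFP in QKO cells Mcm6 was 185.94 to 196.41 TPM and Mcm2 215.84 to 235.15 TPM.

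The helicase activators, which turn the loaded ring into a working fork, changed less. Mcm10, Gins1 and Gins2 rose at 24 h and Cdc45 did not pass (48.63 and 51.7 TPM in 2i, 51.05 and 51.32 TPM at 24 h; 0.03, limma adjusted p = 0.512). Mcm10 went from 84.45 and 90.56 TPM to 122.6 and 111.8 TPM and then to 69.97 and 69.25 TPM, under its 2i level (-0.74 from 24 h to 48 h, limma adjusted p = 1.87e-05).

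In the polymerase and clamp group 5 of 7 genes rose at 24 h and 2 fell. Fen1, the nuclease that trims Okazaki fragments, rose from 41.64 and 43.22 TPM to 86.21 and 87.93 TPM and was 57.47 and 52.97 TPM at 48 h (1.02, SE 0.05, limma adjusted p = 1.78e-06 at 24 h). Pcna, the sliding clamp and the most abundant of the 36 genes in all 3 groups, was 379.91 and 387.66 TPM in 2i, 560.29 and 580.1 TPM at 24 h and 417.49 and 398.97 TPM at 48 h. Pola1, the catalytic subunit of the polymerase that makes primers, fell from 54.58 and 53.08 TPM to 40.32 and 39.51 TPM (-0.42, limma adjusted p = 2.75e-05). The clamp loader subunits parted: Rfc3 rose at 24 h, from 45.43 and 44.43 TPM to 73.02 and 69.32 TPM. Rfc4 was 49.91 and 50.2 TPM in 2i, 46.13 and 46.84 TPM at 24 h and 67.87 and 68.31 TPM at 48 h. It is 1 of the 2 genes that rose from 24 h to 48 h (0.54, limma adjusted p = 5.71e-06), the other being E2f5.

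All 4 nucleotide supply genes rose at 24 h. Rrm2, the S phase subunit of ribonucleotide reductase, went from 198.79 and 204.41 TPM to 322.87 and 322 TPM and then 228.36 and 221.61 TPM (0.67, limma adjusted p = 1.26e-06 at 24 h). Tyms, which makes thymidylate, was 143.3 and 144.69 TPM, then 201.15 and 197.78 TPM, then 133.55 and 127.47 TPM. Tk1, thymidine kinase, was 81.18 and 86.78 TPM in 2i, 100.02 and 93.86 TPM at 24 h and 58.51 and 61.54 TPM at 48 h. Tyms and Tk1 thus ended under their 2i values, whereas Rrm1, the large subunit of the reductase, stayed up at 125.37 and 117.03 TPM against 93.13 and 96.28 TPM in 2i. Both checkpoint and repair genes fell. Brca1, a homologous recombination factor, stood at 72.82 and 72.85 TPM in 2i, 38.11 and 39.6 TPM at 24 h and 33.03 and 34.85 TPM at 48 h (-0.89, SE 0.04, limma adjusted p = 1.7e-06 at 24 h). Chek1, the kinase that guards stalled forks, went from 117.61 and 108.59 TPM to 92.17 and 92.56 TPM and then 72.88 and 73.35 TPM.

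**Figure D2:**
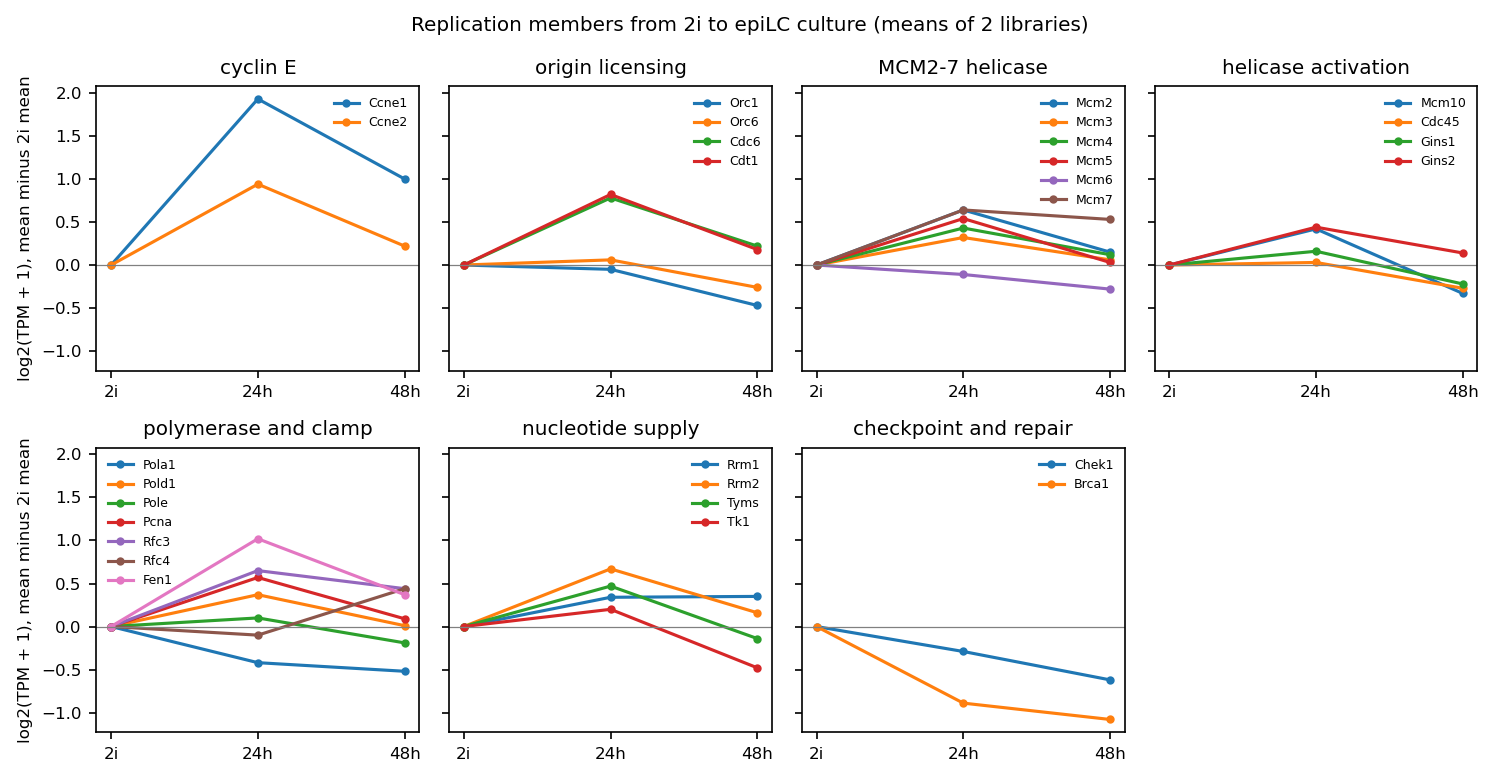
Group mean log2(TPM + 1) of each replication gene minus its own 2i mean, in 2i and in epiLC at 24 h and 48 h with no hairpin named, 1 panel a role and 1 line a gene. Ccne1 (1.93) and Fen1 (1.02) peak highest at 24 h, while Brca1, Chek1 and Pola1 fall.

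After 48 h the net difference from 2i was mixed, with 20 genes higher and 13 lower, a median log2 difference of 0.13 against 0.11 over all genes, and 75.9% of all genes called, 45.1% higher and 30.8% lower. With median-of-ratios scaling, which shifted the median of all genes by -0.10, 11 genes were higher and 14 lower. The share of all genes called in the scaled fit is not given, so these counts are not read as a result about the members. E2F paralogs made up 6 of the 20 higher genes and 1 of the 13 lower, with E2f5 at 0.15 (limma adjusted p = 0.0276). The calls of E2f5, Ccne2, Pcna, Mcm2 and Mcm4 were lost without at least 1 library and with that scaling, under which Pcna turned to -0.02. E2f7 (1.37, SE 0.04, limma adjusted p = 4.02e-07), E2f8 (1.42, adjusted p = 4.55e-07), Ccne1 (1.00, adjusted p = 6.44e-07) and E2f4 (0.99, adjusted p = 2.09e-06) stayed well above 2i. Brca1 (-1.08, limma adjusted p = 6.92e-07), E2f1 (-0.89, adjusted p = 6.77e-06), Chek1 (-0.62) and Pola1 (-0.52) stayed below it. Mcm3, Mcm5 and Pold1 differed by 0.06, 0.03 and 0.01 and did not pass.

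Other genes of the pathway moved as follows in the unmodified course, where calls were common. At 24 h 36.2% of all genes tested were called higher and 39.8% lower. From 24 h to 48 h 45.2% were called higher and 28.9% lower. The counts below are to be read beside these shares. Of 11 genes for E2F partners and pocket proteins, 5 rose and 2 fell at 24 h. Tfdp1, the main DP partner, went from a mean of 153.25 to 359.92 TPM (1.23, limma adjusted p = 3.83e-07), and Rbl1, which encodes the pocket protein p107, from 23.475 to 10.945 TPM (-1.03). From 24 h to 48 h Mybl2, an E2F target whose product drives later cell cycle genes, fell from 252.83 to 90.84 TPM (-1.47, limma adjusted p = 7.02e-07), and Rb1 rose from 4.035 to 9.745 TPM (1.09). Of 15 G1 cyclins, CDKs and CDK inhibitors, 7 rose and 7 fell at 24 h, among them Ccnd1, a D-type cyclin, up from 28.145 to 96.38 TPM, and Cdkn1a, which encodes the inhibitor p21, down from 132.72 to 57.44 TPM. In a list of 39 other replication genes 24 rose and 8 fell at 24 h, and 5 rose and 33 fell from 24 h to 48 h. Of 20 G2 and mitosis genes 8 rose and 10 fell at 24 h, and 11 rose and 5 fell from 24 h to 48 h. Primitive endoderm markers summed to 6.55 to 7.13 TPM in 2i, 6.6 to 6.61 TPM at 24 h and 22.67 to 26.68 TPM at 48 h. Most of that rise was Dab2, at 0.47 and 0.63 TPM in 2i and 13.62 and 16.92 TPM at 48 h. Gata4 and Lama1 were also higher at 48 h than in 2i, while Gata6, Sox17 and Pdgfra stayed under 1 TPM. The part of these markers in the results was not tested.

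EpiLC carrying shBcat were followed from 24 h to 96 h in another table, and between 24 h and 48 h E2f7 and Ccne2 rose while Mcm10, E2f2 and Brca1 fell. In that step 3 of the 36 genes rose and 11 fell, with a median log2 difference of -0.07 against -0.02 over all genes, and 33.4% of all genes called, 15.7% higher and 17.8% lower. E2f7 rose, from 15.73 and 16.73 TPM to 23.84 and 23 TPM (0.50, SE 0.07, limma adjusted p = 0.00117). Ccne2 rose from 61.29 and 60.67 TPM to 81.95 and 86.56 TPM (0.46, SE 0.08, limma adjusted p = 0.00336). Mcm10 fell from 115.04 and 111.28 TPM to 83.09 and 86.1 TPM (-0.42, SE 0.05, limma adjusted p = 0.000744). For none of these 3 genes did the groups overlap.

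E2f2 fell from 5.15 and 4.36 TPM to 2.42 and 2.52 TPM (-0.73, limma adjusted p = 0.00188), Brca1 from 51.5 and 51.57 TPM to 39.3 and 37.17 TPM, and Cdc6 from 65.04 and 65.95 TPM to 53.37 and 55.52 TPM. Smaller falls passed for Orc1, Cdc45, Chek1, Mcm5, E2f1, Tyms and Gins2, between -0.31 and -0.13, and a rise of 0.23 for Rfc4. The calls of Mcm5, E2f1, Tyms, Gins2 and Rfc4 were each lost when any 1 of the 4 libraries was left out. Those of Cdc6, Cdc45, Orc1 and Chek1 were lost without at least 1 of them, with a highest adjusted p of 0.0588, 0.0865, 0.0912 and 0.102 in limma. E2f8, at 22.88 and 23.58 TPM and then 24.94 and 24.82 TPM, and Pcna, at 498.89 and 510.61 TPM and then 512.24 and 520.45 TPM, did not pass. There is no 2i group in that table, so the rise into 24 h cannot be measured with shBcat.

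From 48 h to 96 h with shBcat, 3 genes rose and 10 fell (median -0.11, against 0.09 over all genes, with 35% of all genes called, 25.2% higher and 9.83% lower). With median-of-ratios scaling 1 rose and 20 fell. Mcm10 fell further, to 67.28 and 68.48 TPM (-0.31, SE 0.05, limma adjusted p = 0.00305), and Ccne1 fell from 182.6 and 211.82 TPM to 156.41 and 143.7 TPM (-0.39, adjusted p = 0.00778). E2f5 rose from 20.27 and 20.49 TPM to 25.54 and 25.83 TPM (0.32, SE 0.06, limma adjusted p = 0.00439). Ccne2 turned down, to 62.24 and 69.86 TPM (-0.35, adjusted p = 0.0117). Rfc4 rose (0.28) as in the step before. Tyms (-0.23), Mcm4 (-0.21), Orc1 (-0.24), Mcm2 (-0.22), Pole (-0.17), Orc6 (-0.17) and Mcm6 (-0.12) fell, and E2f3 rose (0.24, adjusted p = 0.0453 with limma). The calls of Mcm10, E2f5, Tyms and Ccne1 held whichever library was left out; each of the others was lost without at least 1 library. E2f4 took 65.5 to 65.7% of the E2F sum at 24 h, 60.5 to 61.8% at 48 h and 57.7 to 59.7% at 96 h.

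At 96 h the question is what less β-catenin does in epiLC. In this comparison 2 of the 36 genes fell and 0 rose, with 4.82% of all genes called, 2.29% higher and 2.54% lower. Mcm6 was 157.61 and 160.47 TPM with shBcat against 184.77 and 183.32 TPM in the controls (-0.21, SE 0.04, limma adjusted p = 0.0259). Mcm4 was 125.68 and 125.48 TPM against 146.17 and 142.37 TPM (-0.20, SE 0.04, limma adjusted p = 0.0366). Each call was lost when any 1 of the 4 libraries was left out. All 6 MCM2 to MCM7 genes had negative values, with a median of -0.17 against -0.01 over all genes. In 19 of the 36 genes both shBcat libraries lay below both controls (52.8%, against 24.6% of all genes), and in Mcm10 and Pole above (5.56%, against 20.4%). Among the E2F paralogs, E2f4 was 140.02 and 168.68 TPM against 148.19 and 168.79 TPM, a difference of -0.04 that did not pass (limma adjusted p = 0.861). E2f7, at 21.9 and 24.08 TPM against 26.71 and 26.82 TPM, lay below without passing (-0.21, limma adjusted p = 0.13). The control labels name no hairpin, so the effect of carrying a hairpin and that of losing β-catenin cannot be told apart.

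**Figure D3:**
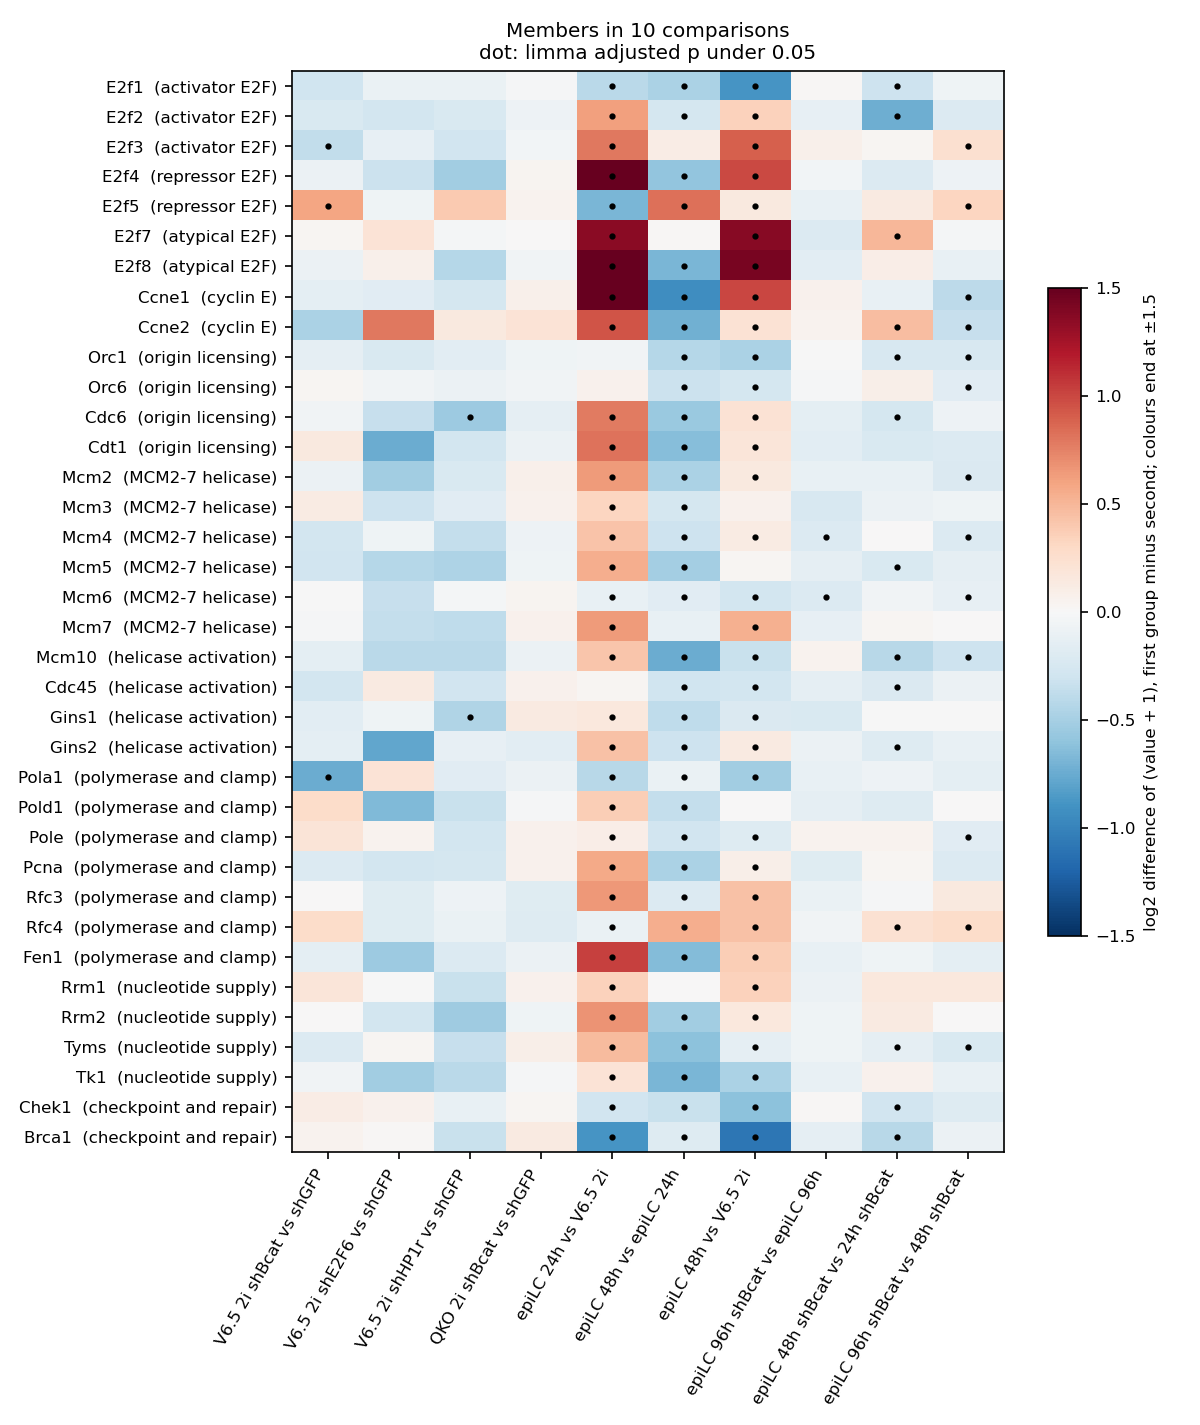
Log2 difference of each of the 36 genes (rows, by role) in the 10 comparisons (columns), with colours that end at 1.5 in either direction and a dot where the limma adjusted p is under 0.05. The epiLC columns carry 33 dots at 24 h and 32 from 24 h to 48 h, and the columns that set a hairpin against its control carry 0 to 3.

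In V6.5 cells in 2i, shBcat changed few of these genes: 1 rose and 2 fell (8.71% of all genes tested were called, 3.51% higher and 5.21% lower). Pola1 was 7.84 and 7.61 FPKM with shBcat and 12.3 to 14.4 FPKM in the 6 shGFP libraries, with no overlap. It fell by 0.74 on the log2 scale (SE 0.09, limma adjusted p = 0.000487) and the call held whichever library was left out. E2f5 rose, from 14.9 to 17.2 FPKM over the shGFP libraries to 24.3 and 25.1 FPKM (0.59, SE 0.11, limma adjusted p = 0.008). E2f3 fell, from 11.4 to 13.1 FPKM to 8.61 and 9.48 FPKM (-0.37, SE 0.09, limma adjusted p = 0.027). Markers of cell state moved in the same libraries. Of 3 epiLC markers tested 1 passed as higher (median of the 3, 0.92), and of 8 naive markers 2 passed as lower and 0 as higher (median -0.07). The epiLC marker sum was 27.609 and 28.989 FPKM with shBcat against 10.341 to 14.794 FPKM with shGFP, and the naive marker sum 950.8 and 967.7 FPKM against 702.9 to 1268.1 FPKM, with no marker listed at 0. Otx2, a primed-state transcription factor, was 6.46 and 6.75 FPKM against 0.899 to 1.69 FPKM, and Tfcp2l1, a naive-state factor, 27.6 and 26.5 FPKM against 40.6 to 75.1 FPKM. The part of cell state in the changes of the replication genes was not tested. The E2f5 call was lost without either shBcat library, and the E2f3 call without either of them, without shGFP replicate 6 or with median-of-ratios scaling. With the libraries averaged in their pairs, which leaves 3 controls and 1 shBcat sample, none of the 3 genes passed (Pola1, limma adjusted p = 0.768). E2f5 made up 20% of the E2F sum with shBcat and 9.83 to 14.6% with shGFP. No other replication gene passed; Mcm4 (-0.27, limma adjusted p = 0.14) and Mcm5 (-0.29, adjusted p = 0.22) came nearest. In 8 of the 36 genes both shBcat libraries lay below all shGFP libraries (22.2%, against 17.6% of all genes), and in E2f5, Pole and Rrm1 above (8.33%, against 16.6%).

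In QKO cells shBcat gave no call among the 36 genes by limma, with 2.15% of all genes called, 0.585% higher and 1.56% lower. At an unadjusted p under 0.05 in limma stood 5 of the 36 genes, and 28.7% of all genes. All log2 differences lay between -0.19 and 0.20. In Cdc6, Cdt1, E2f3, Gins2, Rfc3 and Rfc4 all shBcat libraries lay below all shGFP libraries (16.7%, against 24.6% of all genes), and in Mcm3, Pole, Rrm1 and Tyms above (11.1%, against 10.9%). Gins2 was 83.31, 82.37 and 86.39 TPM with shBcat against 95.31, 93.52 and 93.36 TPM (-0.16, limma adjusted p = 0.056), without overlap, and it passed when genes had to reach 5 TPM. Pola1, the gene that fell with the same hairpin label in V6.5 cells, was 30.11, 40.36 and 47.64 TPM against 43.01, 38.81 and 41.92 TPM, with overlapping groups. E2f5 was 32.66, 32.64 and 29.04 TPM against 29.63, 30.58 and 30.69 TPM, again overlapping. The fibroblast marker sums given above differ between these groups, and their part in the result was not tested.

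The hairpin against E2f6 addresses a repressor of the same family, which lacks the domain that pocket proteins and activation need and works with polycomb proteins. No member passed against the 6 shGFP libraries (0 higher and 0 lower by limma, with 1.06% of all genes called, 0.41% higher and 0.652% lower). At an unadjusted p under 0.05 in limma stood 14 of the 36 genes, and 33.7% of all genes. The median log2 difference was -0.18, close to -0.20 over all genes. In 13 of the 36 genes both shE2F6 libraries lay below all shGFP libraries (36.1%, against 26.5% of all genes), among them Mcm2, Mcm5, Mcm7, Cdc6, Cdt1 and Orc1. In Ccne2 and Pola1 they lay above (5.56%, against 7.32%). Mcm2 was 90.3 and 85.2 FPKM against 108 to 138 FPKM (-0.52, limma adjusted p = 0.0702). Cdt1 was 36.3 and 34.6 FPKM against 47.6 to 75.9 FPKM (-0.74, adjusted p = 0.0724 with limma). Ccne2 was 13.3 and 15.7 FPKM against 5.94 to 11.9 FPKM (0.79, adjusted p = 0.0825 with limma). All 3 are without overlap, and none passed. Median-of-ratios scaling shifted the median of all genes by 0.20 and turned the members' median to 0.05; it moved Mcm2 to -0.27 (adjusted p = 0.15 with limma), Cdt1 to -0.49 and Ccne2 to 1.02.

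The shGFP libraries that share the high mitochondrial share with shE2F6 stood apart in these genes too. In 8 of the 36 genes replicates 3 and 4 lay above the other 4 shGFP libraries (18.4% of all genes did) and in 15 below (56.8% of all genes). Ccne2 was 11.9 and 11.6 FPKM in shGFP replicates 3 and 4 and 5.94 to 6.84 FPKM in the other 4. E2f8 was 9.82 and 9.47 FPKM in replicates 3 and 4 and 4.17 to 4.77 FPKM in the other 4, with 6.18 and 6.4 FPKM in shE2F6 between them. E2f4 was 97.6 and 94.3 FPKM in replicates 3 and 4, 61.1 to 66.8 FPKM in the other 4, and 62.4 and 55.1 FPKM in shE2F6. The calls of E2f4 and E2f8 turned on the controls used. Against replicates 3 and 4 alone, E2f4 was lower (-0.70, limma adjusted p = 0.018) and so was E2f8 (-0.55, adjusted p = 0.0347), and no other member passed (1.14% of all genes were called). Without shGFP replicate 3 there were 8 calls (28.9% of all genes were called in that fit) and without replicate 4 there were 7 (23.9% of all genes), which included Gins2, Mcm2, Cdt1 and Ccne2. In the fits without replicate 3 or without replicate 4 the members were called no more often than all genes. Against replicates 3 and 4 alone, 2 of the 36 were called, a larger share than the 1.14% of all genes. The part of the mitochondrial share in these differences was not tested.

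**Figure D4:**
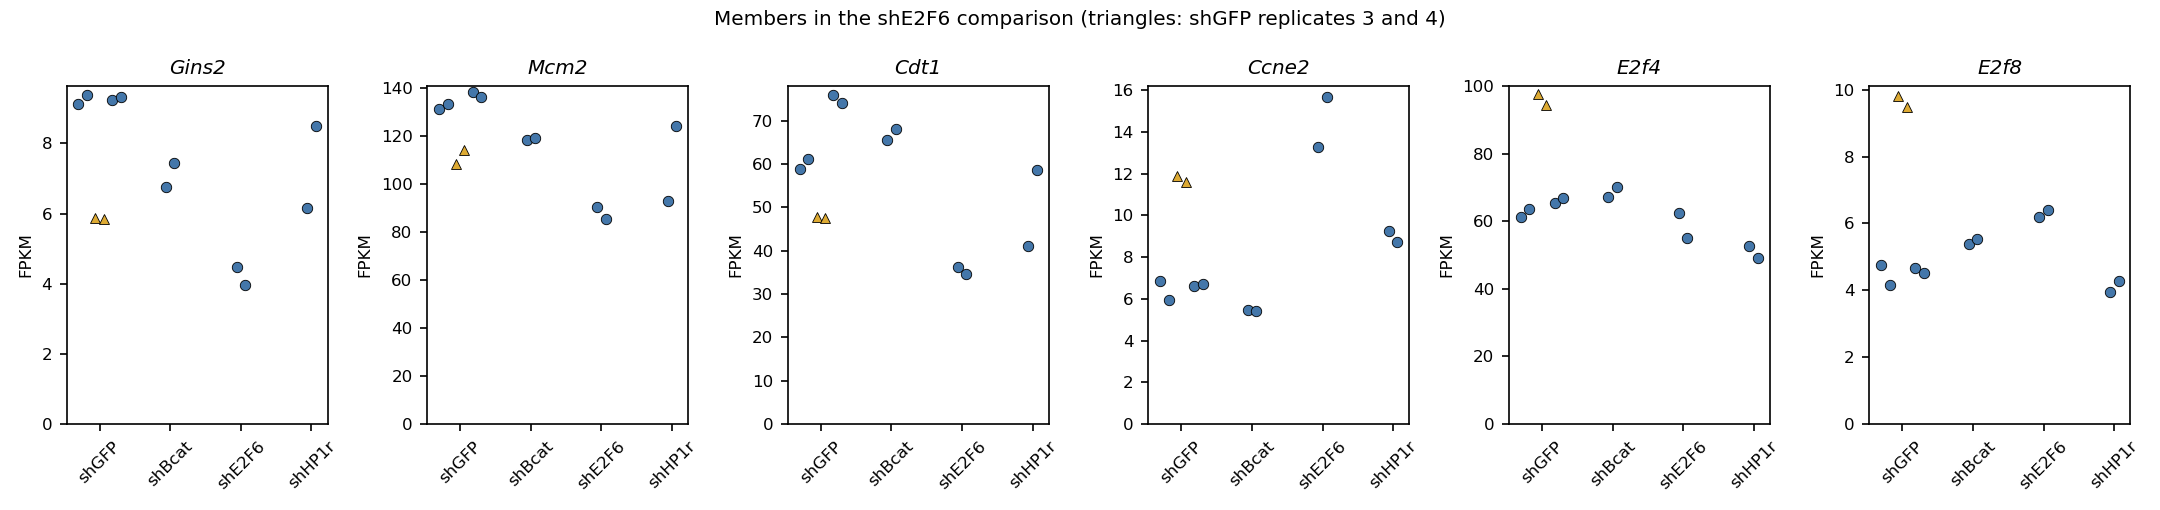
FPKM of Gins2, Mcm2, Cdt1, Ccne2, E2f4 and E2f8 in each V6.5 2i library, with triangles for shGFP replicates 3 and 4. For Ccne2, E2f4 and E2f8 the triangles lie far above the other shGFP points, and for Gins2 they lie below them, at 5.87 and 5.84 FPKM.

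With shHP1r 2 genes fell and 0 rose (7.59% of all genes tested were called, 5.89% higher and 1.7% lower), while 34 of the 36 log2 differences were negative, with a median of -0.27 against 0.04 over all genes. Gins1, a subunit of the GINS complex of the active helicase, was 10.9 and 15.4 FPKM against 16.2 to 18.9 FPKM in shGFP (-0.45, SE 0.12, limma adjusted p = 0.0377). Cdc6 was 7.11 and 12.6 FPKM against 14.1 to 14.6 FPKM (-0.55, SE 0.15, limma adjusted p = 0.0497). The pair of shHP1r libraries was uneven, and replicate 1 was the lower of the pair in 30 of the 36 genes. Cell-state markers differed within the pair too, with a naive marker sum of 868.73 FPKM in replicate 1 and 1241.9 FPKM in replicate 2, and an epiLC marker sum of 17.919 and 10.646 FPKM. Klf4, a naive-state factor, was 7.73 and 24.8 FPKM, and Fgf5, a growth factor of primed cells, 0.769 and 0.0952 FPKM. Neither list had a called gene with shHP1r, and their part in the result was not tested. Replicate 1 lay below all shGFP libraries in 26 genes (72.2%, against 19.7% of all genes) and replicate 2 in 15 (41.7%, against 17.6%). Replicate 1 lay above them in E2f5 alone (2.78%, against 28.3% of all genes), and replicate 2 in E2f5 and Mcm6 (5.56%, against 21.7%). Without replicate 1 neither Gins1 nor Cdc6 passed. The Cdc6 call was also lost without any 1 of the shGFP libraries, and the Gins1 call without any 1 of them except replicate 2.

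E2f5 went the other way, at 20.9 and 21.9 FPKM with shHP1r against 14.9 to 17.2 FPKM (0.39, limma adjusted p = 0.0531), without overlap but not past the threshold. E2f4 was 52.8 and 49.1 FPKM, under the shGFP range of 61.1 to 97.6 FPKM. E2f5 made up 20.4 to 21% of the E2F sum. With a term for the libraries of high mitochondrial share, 20 members passed with shHP1r, where 22.9% of all genes were called. In that fit E2f4 was the only member to pass without replicate 1 (-0.38, limma adjusted p = 0.0248, with 8.17% of all genes called), and 25 passed without replicate 2 (35.2% of all genes).

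**Figure D5:**
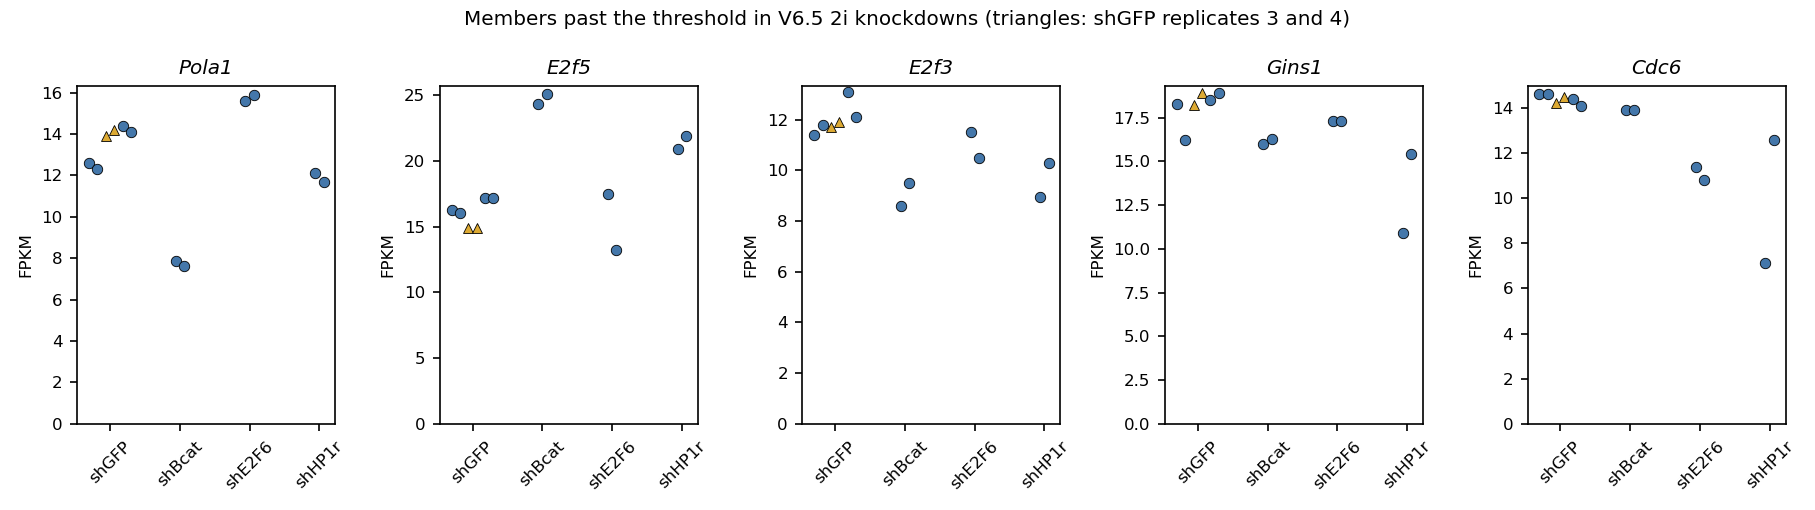
FPKM of the 5 genes called in a V6.5 2i hairpin comparison, Pola1, E2f5, E2f3, Gins1 and Cdc6, in each library, with triangles for shGFP replicates 3 and 4. Pola1 with shBcat (7.84 and 7.61 FPKM) lies apart from all other libraries, and the shHP1r points of Cdc6 are 7.11 and 12.6 FPKM.

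Across the groups the order of levels within each table was stable at both ends. Per length, the MCM genes, Pcna and Rrm2 filled the first 5 ranks in every group, and E2f2 was last in each. In FPKM, Mcm2 (127 FPKM) and Mcm5 (125 FPKM) led in shGFP and differed by less than the spread over libraries, 108 to 138 and 114 to 141 FPKM. In the TPM tables Pcna led in all 9 groups, from 290 to 570 TPM. The 3 knockdowns of the first table share their shGFP controls, so their values stand side by side only: E2f5 was 0.59 with shBcat, -0.07 with shE2F6 and 0.39 with shHP1r, and Pola1 was -0.74, 0.20 and -0.17.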

How the data were processed

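RNA, isolated with TRIzol per the labels' protocols, was sequenced from 32 libraries of mouse cells. Per the submitters' processing notes, the deposited FPKM values of the first table came from a chain that names Cufflinks 2.2.1, TopHat2 2.0.13, Bowtie2 and bcl2fastq 2.18, and the deposited TPM values of the other 3 tables with bcl2fastq 2.18, STAR, RSEM and Bowtie2, all with the mm10 build; strandedness and the roles of the tools are not given in the sources used here. The FPKM table lists 17043 genes, none at 0 in any library, and the TPM tables list 55421 genes each. One per-sample column of the FPKM table, with values below 0, was not used (1 column).

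Each table was fitted alone, with all its libraries, in limma 3.58.1 (R 4.3.3, statmod 1.5.0) on log2(value + 1), after keeping genes of at least 1 in at least 2 libraries, with a variance trend and robust moderation. P-values are two-sided and were adjusted by Benjamini-Hochberg over all genes tested (14407 in the FPKM table, then 15562, 16559 and 15304), with a threshold of 0.05. The fit was tested on simulated data.

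The members and lists were chosen with earlier results of these data known. Text names all 36 members, the knockdown targets and, from each other list, genes among the 4 with the smallest p in a comparison; values per library are given for called members, up to 12 a comparison, and for others named after their values were seen. Deviations of same-numbered replicates correlated at -0.14 to 0.28, highest between both 96 h groups. Only the QKO comparison had 3 such pairs, and where both groups hold 2 libraries both pairs give the same value. These correlations therefore cannot settle whether replicates were paired. The labels name no shared batch, so no block was used. Alternatives were other pseudocounts, filters, scalings, variance models and controls, and leaving out each library. Files without counts give no depth, so no counting interval is given.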

Additional observations from a re-analysis of the deposited data

Results flagged for a closer look

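The following values stand apart by simple rules, without a test of the difference between the settings named, because they lie in separately made tables. Gins1 in shGFP replicate 2 was 16.2 FPKM, below the other 5 shGFP libraries at 18.2 to 18.9 FPKM. It was the 1 flag among the 36 members. By chance the rule flags about 1 in 20 groups of independent libraries, but the shGFP libraries fall into close pairs. The flag is therefore not read as unusual.

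With shBcat every library moved one way in one setting and the other way in another for 3 genes. E2f5 differed by 0.59 in V6.5 2i cells and by -0.11 in epiLC at 96 h. Mcm3 differed by 0.07 in QKO cells and by -0.24 in epiLC at 96 h. Tyms differed by 0.09 in QKO cells and by -0.07 in epiLC at 96 h. Whether these differences differ from each other was not tested. How many of all genes moved in opposite ways was not counted, so the number of 3 is not a result about these genes.

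From 24 h to 48 h of epiLC culture, 7 genes moved down in the libraries with no hairpin named and up in those with shBcat. The log2 differences without a hairpin and with shBcat were -0.69 and 0.10 for E2f8, -0.72 and 0.46 for Ccne2, and -0.32 and 0.09 for Orc6. They were -0.29 and 0.05 for Pole and -0.48 and 0.03 for Pcna. For the nucleotide supply genes they were -0.52 and 0.13 for Rrm2 and -0.68 and 0.07 for Tk1. Of the values with shBcat, that of Ccne2 passed the limma test and the other 6 did not. These differences between the courses were not tested, and the hairpin and the table cannot be told apart. How many of all genes did the same was not counted, so the number of 7 is not a result about these genes.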

How the results depend on the processing

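The counts and medians of the unmodified epiLC course kept their direction under the alternatives run, except that scaling gave 11 members higher and 14 lower at 48 h against 2i. Leaving out each library gave 30 to 33 members called and medians of 0.42 to 0.47 at 24 h against 2i, 30 to 31 and -0.36 to -0.33 from 24 h to 48 h, and 28 to 32 and 0.1 to 0.15 at 48 h against 2i. Median-of-ratios scaling moved the medians to 0.50, -0.52 and 0.02 in these comparisons, to -0.21 from 48 h to 96 h with shBcat, to 0.03 in QKO cells and to 0.05 with shE2F6, and turned Pcna at 48 h against 2i from 0.09 to -0.02. It shifted the median of all genes by -0.15 from 24 h to 48 h, by -0.10 at 48 h against 2i and with shHP1r, and by 0.20 with shE2F6; the cause was not tested.

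With shBcat from 24 h to 48 h, 9 members were called with no filter, and 5 to 7 (medians -0.08 to -0.04) on leaving out a library, which leaves 1 library in a group that is assumed to vary like the others. From 48 h to 96 h, 21 were called with scaling, 8 with no filter and 6 to 15 (medians -0.15 to -0.06) on leaving out a library. Against control epiLC at 96 h, 0 were called with the groups fitted alone, with no filter or with no variance trend, 1 with scaling, and 0 to 1 (medians -0.13 to -0.08) on leaving out a library. In QKO cells 1 was called with a minimum of 5 and 0 on leaving out any library (medians -0.03 to 0.01).

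In V6.5 2i cells with shBcat, 0 members were called with libraries averaged in pairs, 6 with a term for the libraries of high mitochondrial share and 1 to 3 (medians -0.1 to -0.07) on leaving out a library. With shE2F6, 2 were called with that term, 2 with shGFP replicates 3 and 4 as the only controls, and 0 to 8 (medians -0.22 to -0.17) on leaving out a library. With shHP1r, 0 were called with the groups fitted alone or averaged in pairs, 20 with that term (then 1 without replicate 1 and 25 without replicate 2, a choice made after seeing the data), 1 with a minimum of 5, 1 with no variance trend, 1 with a pseudocount of 0.1, 4 with no filter, and 0 to 8 (medians -0.42 to -0.14) on leaving out a library. The labels name no shared batch, so same-numbered replicates were not taken as pairs. With a replicate block 14 members were called with shE2F6, 0 with shHP1r and 2 with shBcat. In that fit the E2f3 call with shBcat was lost (-0.33, limma adjusted p = 0.0856). Replicates 3 to 6 exist in shGFP alone, so the block leaves shGFP replicates 1 and 2 as the only controls. Mitochondrial transcripts took 8.92 and 8.26% of the FPKM there, against 22.9 and 22.3% with shE2F6. The share of all genes called in that fit is not given, so the 14 calls are not read as an effect of pairing. For most alternatives in this section the share of all genes called is not given. Counts of members called there show how the calls depend on the processing and are not results about the members. Groups of 2 and unknown depth limit all of these values.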

Other observations

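Levels of the same gene in V6.5 cells in 2i differed unequally between the FPKM table and the TPM table of the unmodified course, which were made with different tools; the FPKM libraries carry shGFP and the TPM libraries name no hairpin. Tyms was 11.1 to 14.8 FPKM over the shGFP libraries and 143.3 to 144.69 TPM without a hairpin. Gins2 was 5.84 to 9.37 FPKM and 123.43 to 127.26 TPM. E2f4 was 61.1 to 97.6 FPKM and 75.08 to 82.79 TPM. Tyms and Gins2 thus stood far under E2f4 in one table and above it in the other, and the cause was not tested.

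Mybl2, an E2F target outside the 36 genes, was called in several of the other comparisons. In V6.5 2i cells it rose with shBcat, from a mean of 118.33 to 165 FPKM (0.48, limma adjusted p = 0.0281), and fell with shHP1r (-0.55, limma adjusted p = 0.016). In epiLC at 96 h it rose with shBcat (0.27, limma adjusted p = 0.0337). From 24 h to 48 h with shBcat it fell from 282.54 to 149.9 TPM (-0.91). Among the other 39 replication genes, 6 fell and 0 rose with shHP1r, where 1.7% of all genes were called lower and 5.89% higher. The median of the 39 was -0.24 against 0.04 over all genes. Pola2, the partner subunit of Pola1, fell by 0.62 on the log2 scale (limma adjusted p = 0.00492). It was 21.4 and 26.9 FPKM in shHP1r replicates 1 and 2. Whether these calls hold without the uneven replicate 1 is not given. With shE2F6 1 of the 39 fell, where 0.652% of all genes were called lower. This was Recql4, a helicase of replication initiation (-0.56, limma adjusted p = 0.0467). In V6.5 2i cells with shBcat, Cdk6 fell by 1.18 on the log2 scale (limma adjusted p = 0.00107).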
